A study of Mus musculus with 28 samples.

Results

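Tetraspanins are small proteins that cross the cell membrane several times and organise integrins, receptors and proteases into membrane microdomains. The 7 tetraspanin genes described here are *Cd9*, *Cd63*, *Cd81*, *Cd82*, *Cd37*, *Cd53* and *Cd151*. They were chosen by name with earlier results of these data known, so their shares beside all genes are descriptive. They were taken as 7 of the 48587 gene symbol rows in a table of read counts from hippocampal microglia of 28 mice. All 7 passed the filter on low counts together with the rest of the 15298 genes tested. In 5xFAD mice the transcripts of *Cd9* and *Cd63* were higher than in wild-type (WT) mice under every microbial condition, and *Cd63*, *Cd9* and *Cd81* were higher in germ-free (GF) than in specific pathogen-free (SPF) 5xFAD mice. The calls of *Cd9* and *Cd81* between GF and SPF mice were lost when 1 of 2 SPF mice was left out. With a term for the style of sample description, the log2 differences were 0.44 in place of 0.86 (*Cd63*), 0.09 in place of 0.41 (*Cd9*) and -0.0021 in place of 0.37 (*Cd81*). Only 1 mouse separates style from housing in that fit, so it cannot decide whether the calls depend on style.

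The study asked how the gut microbiota affects microglia in a mouse model of amyloid deposition. Microglia were isolated from the hippocampus of male C57BL/6J mice, all 16 weeks old, and sorted as viable CD11b+ CD45low cells negative in a dump gate that included CD3, CD45R, Ly6C and Ly6G. The 5xFAD mice were heterozygous for human transgenes, APP among them, that carry mutations of familial Alzheimer's disease under the neuron-specific Thy-1 promoter, and the WT mice were littermates without the transgenes. The WT mice comprised 5 SPF, 4 GF and 5 ABX-treated animals, and the 5xFAD mice 3, 5 and 6 animals in that order. ABX mice were SPF mice given vancomycin, cefoxitin, gentamicin and metronidazol in the drinking water over 8 weeks. GF mice were obtained by embryo transfer and came from another facility than the SPF mice, so GF housing and source cannot be told apart. The GF 5xFAD mouse FAD_GF_201 carries a description that names it GF WT, while its title and genotype label say 5xFAD. It was kept as 5xFAD, and values without it are given where a call rests on it.

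CD9 and CD81 associate with integrins and immunoglobulin-family proteins at the cell surface and take part in cell adhesion, fusion and antigen presentation. CD63 sits mainly in late endosomes and lysosomes, and together with CD9 and CD81 it is widely used as a marker of exosomes. CD82 restrains cell migration, CD37 and CD53 are tetraspanins of leukocytes, and CD151 binds laminin-binding integrins. In the brain, *Cd9* and *Cd63* belong to the genes that microglia near amyloid plaques are known to express more strongly.

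The genes lie on 5 chromosomes of GRCm38, with *Cd9* on chr6:125460266-125494791 (minus strand), *Cd63* on chr10:128900989-128912822 (plus), *Cd82* on chr2:93419111-93463140 (minus), *Cd53* on chr3:106759921-106790149 (minus), *Cd37* on chr7:45233632-45239115 (minus), *Cd151* on chr7:141467392-141471473 (plus) and *Cd81* on chr7:143052739-143067934 (plus). The promoter sequences of the 3 genes that were higher in GF than in SPF 5xFAD mice are shown here, since those are the members called in that comparison. Each is 210 bases, from 250 to 41 bases before the RefSeq start (GRCm38.p6), written 5′ to 3′ on the strand of the gene, with matches to a GC box (GGGCGG) or to the PU.1 core (GAGGAA, or TTCCTC on the other strand) in capitals.
Cd9: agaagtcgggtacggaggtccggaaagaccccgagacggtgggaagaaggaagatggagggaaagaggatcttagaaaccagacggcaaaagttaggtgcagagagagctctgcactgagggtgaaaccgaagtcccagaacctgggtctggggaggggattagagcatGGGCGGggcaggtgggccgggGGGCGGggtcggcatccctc
Cd63: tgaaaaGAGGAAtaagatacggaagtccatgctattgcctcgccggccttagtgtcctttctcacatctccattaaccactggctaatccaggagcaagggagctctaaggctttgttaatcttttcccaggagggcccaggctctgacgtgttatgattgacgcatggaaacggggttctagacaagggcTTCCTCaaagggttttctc
Cd81: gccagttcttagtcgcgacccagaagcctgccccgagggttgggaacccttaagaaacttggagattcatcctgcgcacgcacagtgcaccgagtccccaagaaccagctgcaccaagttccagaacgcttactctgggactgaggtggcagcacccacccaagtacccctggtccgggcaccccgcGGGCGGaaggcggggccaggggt
The *Cd9* window, at chr6:125494801-125495010, held 2 GC boxes, and the *Cd81* window, at chr7:143052500-143052709, held 1. The *Cd63* window, at chr10:128909095-128909304, held no GC box but 2 PU.1 cores. Of 32851 windows of the same length, 26.7% held a GC box and 19.6% a PU.1 core on either strand. None of these 3 windows held the lysosomal E-box CACGTG (4.65% of all windows), an AP-1 site TGANTCA (5.84%) or a TATA box TATAAA (9.56%). The 5 motifs do not overlap each other in these windows, and a match is only a run of letters.

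Library totals ranged from 14441610 to 29977395 reads, and the member with the fewest reads, *Cd151*, still had 208 to 1553 reads per mouse. Mitochondrial reads made up 0.1111% to 0.1471% in GF WT and 0.1683% to 0.2903% in GF 5xFAD mice, which did not overlap, and 0.1035% to 0.4252% over all mice. Genes with reads numbered 17381 to 18284 in GF and 18547 to 19860 in SPF 5xFAD mice, which did not overlap either. The labelled cell type was checked against 8 microglial markers, whose summed level was 57785 to 64590.3 counts per 1000000 reads (CPM) in WT and 45235 to 55906 CPM in 5xFAD mice. Neutrophil markers reached 56.5 to 221 CPM in the 3 SPF 5xFAD mice and 117 CPM in the ABX 5xFAD mouse FAD_ABX_1151, against at most 0.177 CPM in WT and at most 0.0495 CPM in GF 5xFAD mice. Markers of border-associated macrophages summed to 3.48 to 41.9 CPM in WT mice, 15.3 to 28.3 CPM in SPF, 9.43 to 77 CPM in GF and 32.8 to 242 CPM in ABX 5xFAD mice. Among GF mice the neutrophil sums were at most 0.0907 CPM and the border-associated macrophage sums of WT (10.7 to 41.9 CPM) and 5xFAD mice overlapped. Monocyte markers summed to 15.5 to 38.9 CPM in SPF, 14.4 to 51.9 CPM in ABX and 5.98 to 24.9 CPM in GF 5xFAD mice, against 2.08 to 16.5 CPM in WT mice. Astrocyte markers summed to 155 to 189 CPM in GF and 223 to 239 CPM in SPF 5xFAD mice, and endothelial markers to 9.42 to 21.4 CPM and 23.9 to 29.7 CPM, with 28.6 to 35.5 CPM in GF WT mice. Platelet markers summed to 15.6 to 26.7 CPM in GF 5xFAD and 30.3 to 43.2 CPM in GF WT mice. The astrocyte sum was mostly *Slc1a3* (median 235 CPM over all mice, of a median sum of 237 CPM). The endothelial sum was mostly *Pecam1* (26.6 of 29.1 CPM) and the platelet sum *Gp9* (30.5 of 30.5 CPM). Every other marker in these lists had a median of at most 1.31 CPM. The part of other cells and of library quality in the results was not tested. The libraries also carry sample descriptions of 3 styles: SPF 5xFAD mice and FAD_ABX_1151 share a style, SPF and ABX WT mice have their own, and the remaining libraries, from every GF mouse and 5 ABX 5xFAD mice, have the last. Nothing says whether a style marks a batch. It cannot be told apart from genotype in SPF or ABX mice or from GF against SPF or ABX in WT mice, and in 5xFAD mice FAD_ABX_1151 alone separates it from GF or ABX against SPF. All GF mice share 1 style. Bulk RNA also does not tell fewer cells expressing a gene from less RNA per cell.

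CPM refers throughout to counts on library sizes scaled by the trimmed mean of M-values (TMM). Per kilobase of counted exon, *Cd81* had the highest median level over the 28 mice (1141 CPM per kb), followed by *Cd53* (869), *Cd9* (705), *Cd63* (213), *Cd37* (176), *Cd82* (68.5) and *Cd151* (14.4). The place of *Cd63* rests on the 1031 exon bases that the table gives. With the 3682 exon bases of GENCODE M21 it would be at 59.7 CPM per kb, below *Cd82*, and by CPM alone it came after *Cd37*. In SPF WT mice *Cd81* made up 37.4% of the summed per-kilobase level of the 7 genes, *Cd53* 30.9% and *Cd9* 17.7%. In GF 5xFAD mice *Cd9* made up 31.2%, *Cd81* 30.7% and *Cd53* 19.5%. These shares use the exon lengths of the table, that of *Cd63* included. The summed level itself was 2812 CPM per kb in SPF WT, 3512 in SPF 5xFAD, 3650.1 in ABX 5xFAD and 4498 in GF 5xFAD mice, as group means.

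**Figure D1:**
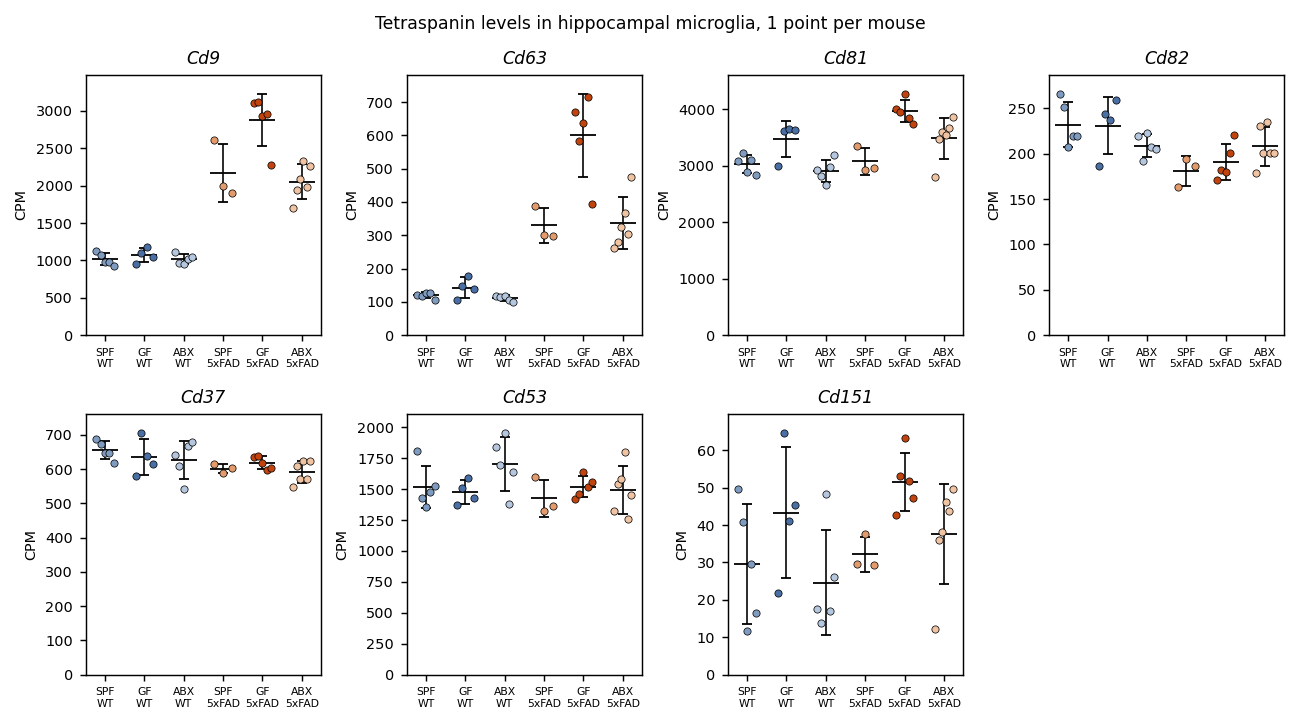
Level of each tetraspanin transcript in every mouse (points; CPM on TMM-scaled library sizes, 1 panel per gene) in the 6 groups, with the group mean as a long bar and the SD as error bars. *Cd9* and *Cd63* lie higher in every 5xFAD mouse than in any WT mouse, and *Cd53* overlaps among all groups.

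*Cd9* was the member with the largest difference in CPM between genotypes. Its level was 931, 974, 979, 1078 and 1128 CPM in the 5 SPF WT mice. In the 3 SPF 5xFAD mice it was 1901, 1997 and 2609 CPM. Every SPF 5xFAD mouse thus lay above every SPF WT mouse, and the log2 fold change was 1.09 (SE 0.107, edgeR quasi-likelihood test, adjusted p = 1.59e-08), a 2.13-fold difference. GF WT mice had 952, 1046, 1104 and 1179 CPM. GF 5xFAD mice had 2270.2, 2938, 2956, 3109 and 3117 CPM, the lowest of them being FAD_GF_201. These groups did not overlap either (log2 fold change 1.43, SE 0.104, adjusted p = 2.96e-11). ABX WT mice had 948, 964, 1016, 1044 and 1114 CPM, whereas the 6 ABX 5xFAD mice ranged from 1702 to 2336 CPM with a median of 2039 CPM. Again no value of either group reached the other (log2 fold change 1.01, SE 0.0922, adjusted p = 2.79e-09). Part of the counted *Cd9* sequence is shared: 14.4% of its 50-base windows also occur in another gene, chiefly the opposite-strand *Gm26728*, which had 164 reads over all libraries against 965876 for *Cd9*. Averaged over SPF, GF and ABX mice, *Cd9* was 2.26-fold higher in 5xFAD mice (log2 fold change 1.18, SE 0.0582, adjusted p = 7.05e-16).

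*Cd63*, the late endosomal member, had the largest fold change of the 7 genes in each of these comparisons. SPF WT mice had 107, 119, 121, 127 and 128 CPM, and SPF 5xFAD mice 299, 301 and 389 CPM. The groups were separate, and the log2 fold change was 1.45 (SE 0.168, adjusted p = 3.98e-07), or 2.74-fold. In GF mice the values were 105, 139, 148 and 179 CPM for WT and 393, 583, 638, 670.1 and 715 CPM for 5xFAD. The lowest GF 5xFAD mouse, again FAD_GF_201, was above the highest GF WT mouse, and the log2 fold change was 2.07 (SE 0.167, adjusted p = 1.84e-10), or 4.2-fold. ABX WT mice had 101, 105, 116, 118 and 119 CPM, and the ABX 5xFAD mice ranged from 260.5 to 475 CPM with a median of 315 CPM. These did not overlap (log2 fold change 1.59, SE 0.148, adjusted p = 4.44e-09), and the average over the 3 conditions was 3.26-fold (log2 fold change 1.70, SE 0.0926, adjusted p = 6.61e-15). Of 3991 windows of 50 bases in the annotated *Cd63* transcripts, 387 (9.7%) also occur in the pseudogene *Cd63-ps*. Set against the windows of the 1031 exon bases counted, the same 387 would be 39.4%. Adding the reads of *Cd63-ps*, a step chosen after the data were seen, left the genotype log2 fold changes at 1.45 (SPF), 2.07 (GF) and 1.58 (ABX).

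**Figure D2:**
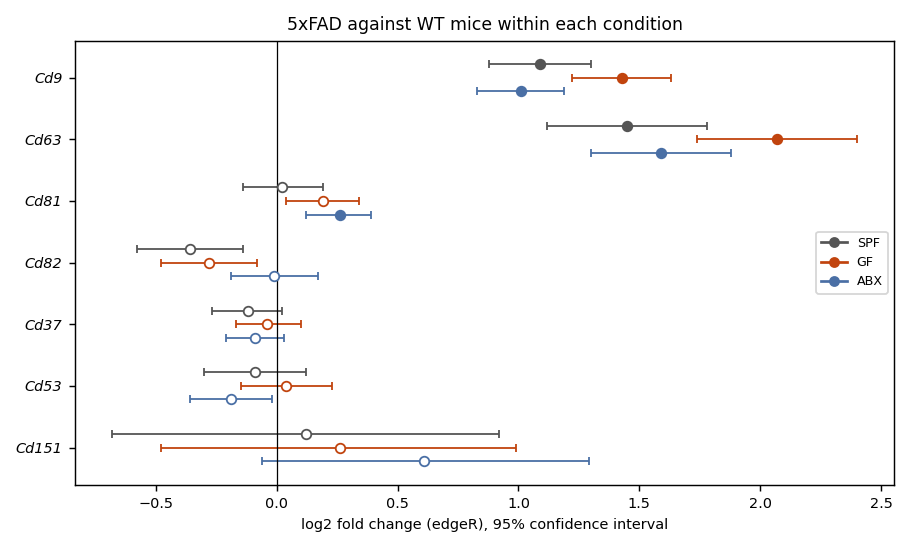
Log2 fold change of 5xFAD against WT (x axis, edgeR) for each tetraspanin gene (y axis) in SPF, GF and ABX mice, with 95% confidence intervals (1.96 SE). Filled points passed the threshold of 0.05 on the adjusted p: *Cd9* and *Cd63* under each condition and *Cd81* in ABX mice.

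Across the family, 2 of 7 genes rose in SPF 5xFAD mice, where 3.73% of the 15298 genes tested rose. The count was 2 of 7 in GF mice (9.43% of all genes rose), 3 of 7 in ABX mice (9.45%) and 3 of 7 on average (14.3%), and 1 of 7 fell on average (10.8%). Counted by mice that did not overlap, 2 of 7 genes lay higher in SPF 5xFAD mice (9.44% of all genes) and 2 of 7 lower (7.5%), 3 of 7 lay higher in GF mice (9.14%) and 2 of 7 in ABX mice (4.68%). An F test over the 6 groups called 4 of 7 (*Cd9*, *Cd63*, *Cd81* and *Cd82*), beside 33.2% of all genes. For *Cd82* that call was lost without the low-count filter (adjusted p = 0.0673) and without any of WT_SPF_912, WT_SPF_925, WT_GF_229, WT_GF_230, WT_GF_231, WT_ABX_909, FAD_SPF_1144, FAD_SPF_1148, FAD_GF_181, FAD_GF_182, FAD_GF_184 or FAD_GF_185 (adjusted p from 0.0503 to 0.104). The median log2 fold change of the 7 genes on average was 0.16, against -0.03 over all genes tested. Beside these differences, *App*, whose counted row can also take reads of the human transgene, was 1.22-fold higher in 5xFAD than in WT mice under SPF conditions (adjusted p = 0.113), 1.09-fold in GF mice (adjusted p = 0.453) and 1.27-fold in ABX mice (adjusted p = 0.00532), of which the last passed.

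*Cd81*, the most abundant member, differed little in SPF mice: 2839, 2886, 3082, 3105 and 3223 CPM in WT against 2929, 2958 and 3344 CPM in 5xFAD mice. The ranges overlapped, and the log2 fold change was 0.02 (adjusted p = 0.962, 95% confidence interval -0.14 to 0.19). In ABX mice WT values were 2656, 2816, 2932, 2987 and 3183 CPM, and 5xFAD values ran from 2807 to 3859 CPM with a median of 3566 CPM. Of the 6 ABX 5xFAD mice only FAD_ABX_1151 lay within the WT range, and *Cd81* rose 1.2-fold (log2 fold change 0.26, SE 0.069, adjusted p = 0.0103). That call was lost with offsets for GC content (0.18, adjusted p = 0.0631) and with the 2 groups fitted alone (adjusted p = 0.0541). In GF mice the values were 2999, 3625, 3633 and 3644 CPM in WT and 3748, 3844, 3960.4, 4014 and 4274 CPM in 5xFAD. All 5xFAD mice were above all WT mice, yet the difference did not pass (log2 fold change 0.19, SE 0.0764, adjusted p = 0.0905). It passed with 26 mice, that is without FAD_ABX_1151 and FAD_ABX_1482 (0.19, adjusted p = 0.0356). Averaged over conditions it was 0.16 (SE 0.044, adjusted p = 0.00777), which was lost with library size alone in place of TMM (0.07, adjusted p = 0.163), a scaling that moved the median of all genes by -0.0828.

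*Cd82* was the member that fell. SPF WT mice had 207, 219, 219, 251 and 266 CPM and SPF 5xFAD mice 163, 186 and 194 CPM. No 5xFAD mouse reached the WT range, but the log2 fold change of -0.36 (SE 0.111) did not pass with edgeR (adjusted p = 0.0632). It passed with DESeq2 (-0.34, adjusted p = 0.0401) and voomWithQualityWeights (-0.30, adjusted p = 0.00746). GF WT mice had 186, 237, 244 and 259 CPM and GF 5xFAD mice 171.29, 179.82, 181.55, 201.01 and 220.05 CPM, which overlapped (-0.28, edgeR adjusted p = 0.0596). This difference passed with DESeq2 (-0.28, adjusted p = 0.0446) and voomWithQualityWeights (-0.32, adjusted p = 0.0289). With edgeR it passed without FAD_GF_201 (-0.33, adjusted p = 0.0295), without WT_GF_199 (-0.37, adjusted p = 0.0131) and without FAD_ABX_1151 (-0.29, adjusted p = 0.0447), and the one in SPF mice passed without WT_GF_199 (adjusted p = 0.0375). In ABX mice the means were nearly equal, 209 ± 12.3 CPM (SD, n = 5) in WT and 208 ± 21.4 CPM (SD, n = 6) in 5xFAD (-0.01, adjusted p = 0.966). The average over conditions passed (-0.21, SE 0.0585, adjusted p = 0.00659). The genotype differences in ABX and SPF mice were compared by an interaction term, which did not pass (0.35, SE 0.144, adjusted p = 0.704).

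The leukocyte tetraspanins *Cd37* and *Cd53* did not pass any test between groups. *Cd37* stayed between 541 and 705 CPM in all 28 mice, with group means from 591 ± 32 CPM (SD, n = 6, ABX 5xFAD) to 655 ± 26.7 CPM (SD, n = 5, SPF WT). *Cd53* stayed between 1261 and 1953 CPM, with group means from 1427 ± 149 CPM (SD, n = 3, SPF 5xFAD) to 1703 ± 218 CPM (SD, n = 5, ABX WT). In SPF mice *Cd37* was 618, 648, 648, 674 and 687 CPM in WT and 588, 602 and 614 CPM in 5xFAD, which did not overlap but did not pass the test (-0.12, adjusted p = 0.519). *Cd53* overlapped between genotypes under each condition. The average genotype difference was -0.08 for *Cd37* (95% confidence interval -0.16 to -0.01, adjusted p = 0.133) and -0.08 for *Cd53* (-0.19 to 0.03, adjusted p = 0.344). *Cd37* did pass on average when library size alone was used (-0.17, adjusted p = 0.00113), with voomWithQualityWeights (-0.09, adjusted p = 0.0458) and with GC content offsets (-0.14, adjusted p = 0.00356). *Cd53* passed on average with library size alone (-0.16, adjusted p = 0.0328) and, between GF and SPF 5xFAD mice, with GC content offsets (0.48 in place of 0.09, adjusted p = 0.00979). Within ABX mice the genotype difference passed for *Cd37* with GC content offsets (-0.24 in place of -0.09, adjusted p = 0.00314) and for *Cd53* with library size alone (-0.27 in place of -0.19, adjusted p = 0.0414).

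*Cd151* was the scarcest member, and its SD was 14.5% to 57.4% of the group mean. SPF WT mice had 11.6, 16.4, 29.5, 40.7 and 49.7 CPM and SPF 5xFAD mice 29.3, 29.7 and 37.6 CPM. GF WT mice had 21.9, 41.2, 45.4 and 64.6 CPM and GF 5xFAD mice 42.6, 47.3, 51.7, 53.2 and 63.4 CPM. ABX WT mice had 13.7, 16.9, 17.5, 26.2 and 48.4 CPM, and ABX 5xFAD mice 12.1 to 49.7 CPM with a median of 40.9 CPM. The WT and 5xFAD ranges overlapped under each condition, and the average genotype difference of 0.33 had an interval from -0.09 to 0.75 (adjusted p = 0.294). An antisense transcript, *Gm10575*, shares 193 exon bases with *Cd151*, and without a stated strand setting reads from those bases cannot be told apart.

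The next comparison was of microbial conditions among 5xFAD mice. *Cd63* was higher in each of the 5 GF 5xFAD mice (393 to 715 CPM) than in any of the 3 SPF 5xFAD mice (299 to 389 CPM). The log2 fold change was 0.86 (SE 0.176, adjusted p = 0.00302), or 1.82-fold. *Cd81* rose 1.29-fold (log2 fold change 0.37, SE 0.0839, adjusted p = 0.00536), with all GF 5xFAD mice (3748 to 4274 CPM) above all SPF 5xFAD mice (2929 to 3344 CPM). *Cd9* rose 1.33-fold (log2 fold change 0.41, SE 0.11, adjusted p = 0.0154), but its ranges overlapped, since FAD_GF_201 at 2270.2 CPM lay below the SPF mouse FAD_SPF_1144 at 2609 CPM. These 3 of 7 rises stand beside 6.97% of all genes tested, and the 3 of 7 genes whose mice did not overlap (*Cd63*, *Cd81* and *Cd151*) beside 10.4%. *Cd151* was higher in all 5 GF mice than in the 3 SPF mice without passing the test (0.68, SE 0.417, adjusted p = 0.313), though it passed when those groups were fitted alone (0.66, adjusted p = 0.0214), and *Cd82*, *Cd37* and *Cd53* differed by 0.04 to 0.09 on the log2 scale.

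The GF against SPF calls rest on 3 SPF 5xFAD mice, and that of *Cd9* was lost when those groups were fitted alone (0.39, adjusted p = 0.0663). Without FAD_SPF_1146 the *Cd9* difference was 0.33 (adjusted p = 0.118) and that of *Cd81* 0.31 (adjusted p = 0.0575), and without FAD_SPF_1148 they were 0.31 (adjusted p = 0.155) and 0.33 (adjusted p = 0.0574), whereas *Cd63* passed each time. Without FAD_SPF_1144, the mouse with the highest neutrophil marker sum, the differences were 0.56 for *Cd9* (adjusted p = 0.00489), 1.00 for *Cd63* (adjusted p = 0.00393) and 0.43 for *Cd81* (adjusted p = 0.00625). Without FAD_GF_201 they were 0.48 (adjusted p = 0.00385) for *Cd9*, 0.98 for *Cd63* and 0.38 for *Cd81*. With a term for description style, which leaves 1 mouse to separate style from housing, *Cd63* was at 0.44, *Cd9* at 0.09 and *Cd81* at -0.0021. With 1 mouse, that fit cannot decide whether the calls depend on style.

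**Figure D3:**
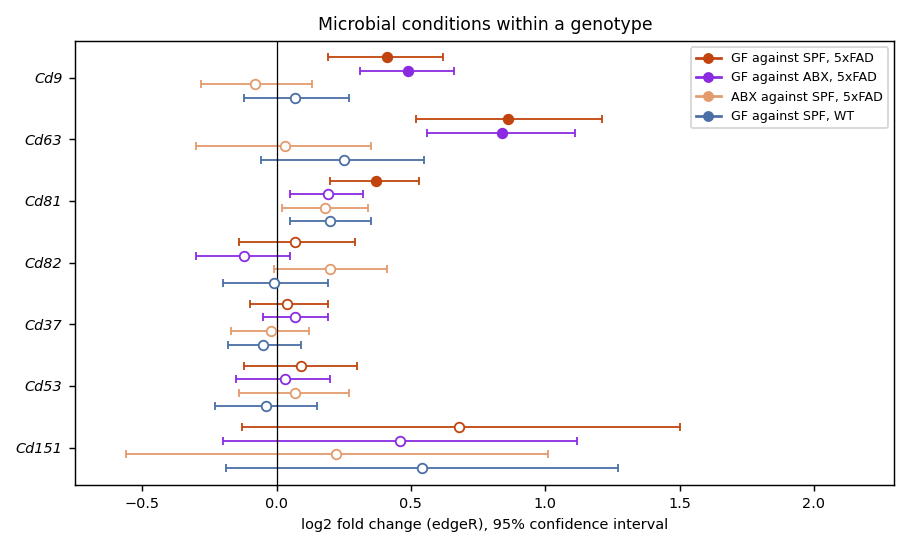
Log2 fold changes between microbial conditions within a genotype (x axis, edgeR) for each tetraspanin gene (y axis), with 95% confidence intervals (1.96 SE) and filled points where the adjusted p was below 0.05. *Cd63* and *Cd9* were higher in GF than in SPF and in ABX 5xFAD mice, *Cd81* in GF than in SPF 5xFAD mice, and no gene passed for ABX against SPF.

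Antibiotic-treated and SPF 5xFAD mice were compared next. None of the 7 genes passed edgeR's test between them (0% of all genes were called), while 1 had an unadjusted p below 0.05 (7.09% of all genes), and none passed with DESeq2 (0.0533%) or with voomWithQualityWeights (0.876%). The log2 difference was -0.08 for *Cd9* (95% confidence interval -0.28 to 0.13) and 0.03 for *Cd63* (-0.30 to 0.35). Against the ABX 5xFAD mice, GF 5xFAD mice had more *Cd9* (0.49, SE 0.09, adjusted p = 0.00143) and more *Cd63* (0.84, SE 0.141, adjusted p = 0.000649), 2 of 7 genes where 6.07% of all genes rose. Within 1 description style, that is without FAD_ABX_1151, these were 0.43 (adjusted p = 0.00522) and 0.76 (adjusted p = 0.00259). *Cd81* did not pass against ABX mice (0.19, adjusted p = 0.079) unless FAD_ABX_1482 was left out (0.22, adjusted p = 0.0327).

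The same conditions were then compared among WT mice. None of the 7 genes passed between GF and SPF WT mice (1.62% of all genes called), where 1 had an unadjusted p below 0.05 (16.6% of all genes), DESeq2 called none (5.73%) and voomWithQualityWeights called 1 (10.7%). *Cd9* differed by 0.07 (adjusted p = 0.791), *Cd63* by 0.25 (adjusted p = 0.462) and *Cd81*, the member that voomWithQualityWeights called (0.22, adjusted p = 0.0131), by 0.20 (adjusted p = 0.165). Between ABX and SPF WT mice none passed with edgeR (0% of all genes called), DESeq2 (0.0131%) or voomWithQualityWeights (0%), and none had an unadjusted p below 0.05 (4.49% of all genes). Between GF and ABX WT mice *Cd81* rose (0.25, SE 0.076, adjusted p = 0.0409), 1 of 7 where 4.48% of all genes rose. There 4 of 7 had an unadjusted p below 0.05 (22.6% of all genes), DESeq2 called 1 (13%) and voomWithQualityWeights 2 (13.2%). *Cd151* passed with voomWithQualityWeights (1.09, adjusted p = 0.0433) and *Cd63* with gene length offsets (0.40, adjusted p = 0.0416). The *Cd81* call was lost with library size alone, without the low-count filter, with 10 or more reads in every library and with GC content offsets. It was also lost when any of 10 single mice was left out. These were WT_GF_229, WT_GF_230, WT_GF_231, WT_ABX_909, WT_ABX_910 and WT_ABX_911 of the groups compared and FAD_GF_182, FAD_GF_185, FAD_ABX_1452 and FAD_SPF_1148 of the shared fit, with differences of 0.22 to 0.25 and adjusted p from 0.0517 to 0.124.

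Whether genotype acted differently under the conditions was tested by interaction terms, and none of the 7 genes passed in any of the 3. The genotype difference of *Cd63* was larger by 0.62 on the log2 scale in GF than in SPF mice (adjusted p = 0.465) and that of *Cd9* by 0.34 (95% confidence interval 0.04 to 0.63, adjusted p = 0.548), in a comparison where 0% of all genes were called. In GF against ABX mice the terms were 0.49 for *Cd63* (adjusted p = 0.246) and 0.41 for *Cd9* (adjusted p = 0.111), with 1.76% of all genes called. In ABX against SPF mice they were 0.13 and -0.08 (0% called). In each interaction 2 of 7 genes had an unadjusted p below 0.05, as had 8.52% of all genes (GF against SPF), 15.9% (GF against ABX) and 6.75% (ABX against SPF), and DESeq2 and voomWithQualityWeights called none. In the same order DESeq2 called 0.167%, 4.36% and 0.00654% of all genes and voomWithQualityWeights 0.758%, 1.84% and 0.0915%. Without FAD_GF_201 the *Cd9* term for GF against ABX was 0.49 and passed (adjusted p = 0.0312).

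The groups could also be ordered for each gene. *Cd9* was highest in GF 5xFAD mice (2878 ± 349.8 CPM, SD, n = 5), then SPF 5xFAD (2169 ± 384, n = 3) and ABX 5xFAD (2054 ± 229.5, n = 6), which differed by less than their spread. The WT groups followed at 1070.3 ± 95.9 (GF, n = 4), 1018 ± 81.8 (SPF, n = 5) and 1017 ± 66.8 CPM (ABX, n = 5), all within their spread. *Cd63* had the same first group (599.6 ± 125 CPM), then ABX 5xFAD (336 ± 77.6) and SPF 5xFAD (329.5 ± 51.5), which were not apart, and then the WT groups at 112 to 143 CPM. For *Cd81*, GF 5xFAD mice (3968 ± 199.7 CPM) came first, ABX 5xFAD (3489 ± 360.1) and GF WT (3475 ± 317) were level, and SPF 5xFAD, SPF WT and ABX WT lay between 2915 and 3077 CPM. The neighbours in the order differed by less than their spread at every step for *Cd82*, *Cd37*, *Cd53* and *Cd151*.

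*Cd9* and *Cd63* varied together among 5xFAD mice. Over the 14 5xFAD mice their log2 CPM had a Pearson correlation of 0.944 (Spearman 0.921), against 0.589 (0.556) over the 14 WT mice. The 5xFAD mice include all 3 conditions, and each pair of values shares a library. Over all 28 mice after the group means were subtracted, it was 0.775. The ratio of *Cd63* to *Cd9* reads, given without a test, was 0.119 ± 0.0112 in SPF WT, 0.152 ± 0.00426 in SPF 5xFAD, 0.162 ± 0.0239 in ABX 5xFAD and 0.207 ± 0.0272 in GF 5xFAD mice (SD). The ratio of *Cd9* to *Cd81* reads was 0.308 to 0.349 in the WT groups and 0.589 to 0.725 in the 5xFAD groups, as means. These ratios are taken within a library and do not depend on its scaling.

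**Figure D4:**
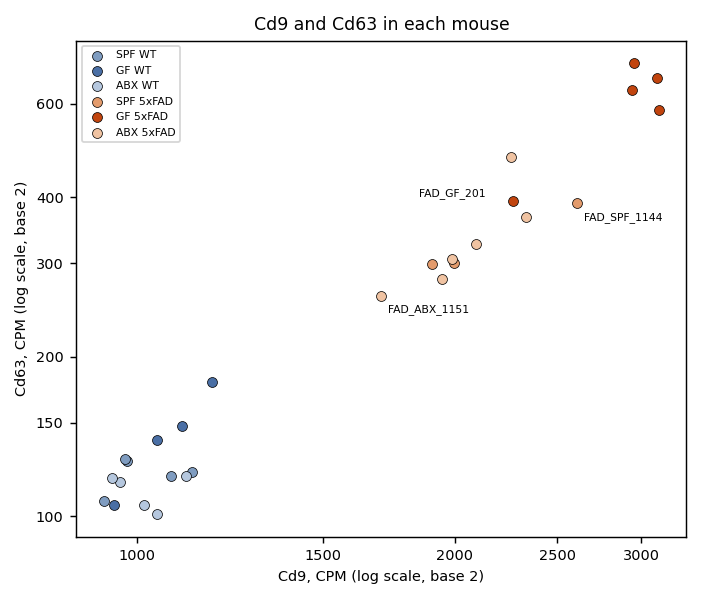
*Cd63* (y axis) against *Cd9* (x axis) in each mouse, both in CPM on log axes, coloured by group. WT mice form a cluster at 931 to 1179 CPM of *Cd9*, and 5xFAD mice run from 1702 to 3117 CPM with *Cd63* increasing alongside, GF 5xFAD mice at the upper end except FAD_GF_201.

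Over all 28 mice, and among 9051 genes with an average log2 CPM of at least 3, the transcripts most like *Cd9* were *Ctsl* (Pearson r = 0.991), *Npc2* (0.985) and *Sdf4* (0.985). Those most like *Cd63* were *Npc2* (0.992), *Ctsz* (0.988) and *Ctsd* (0.986). *Ctsl*, *Ctsz* and *Ctsd* encode lysosomal cathepsins and *Npc2* a cholesterol carrier of the lysosome. *Cd63* ranked 9 among the genes like *Cd9* (0.983). The best matches of the other members were *Capzb* for *Cd81* (0.957), *Raly* for *Cd151* (0.865), *Cd302* for *Cd53* (0.859), *Zfp623* for *Cd82* (0.814) and *Tmem86a* for *Cd37* (0.759). These correlations are descriptions over mice in separate groups. After the group means were subtracted, *Cd9* was still most like *Ctsl* (0.923), *Cd63* was most like *Tyrobp* (0.915) and *Cd81* like *Ddost* (0.928).

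Of 24 other tetraspanins in the table, 15 could be tested, and 3 rose and 2 fell in 5xFAD mice on average, where 14.3% of all genes rose and 10.8% fell. *Tspan17* (log2 fold change 1.03, at group means of 1.58 to 5.37 CPM), *Tspan5* (0.42) and *Tspan4* (0.18) were higher, and *Tspan18* (-0.89, adjusted p = 5.17e-08) and *Upk1b* (-0.54) were lower. Their median was 0.01, against -0.03 over all genes. Between GF and SPF 5xFAD mice 4 of 15 rose (6.97% of all genes), led by *Tspan4* (0.63, adjusted p = 0.00316), *Tspan5* (0.59) and *Tspan7* (0.39), and 1 of 15 fell (5.86% of all genes), *Tspan18* (-0.64, adjusted p = 0.0225). *Tspan4* was also higher in GF than in SPF WT mice (0.51, adjusted p = 0.0221). *Tspan5* and *Tspan17* belong to the TspanC8 group, which carries the protease ADAM10 to the cell surface. *Adam10* itself was lower in GF than in SPF 5xFAD mice (-0.58, adjusted p = 0.00957), and of the 5 genes tested in that list 2 rose and none fell on average with genotype.

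**Figure D5:**
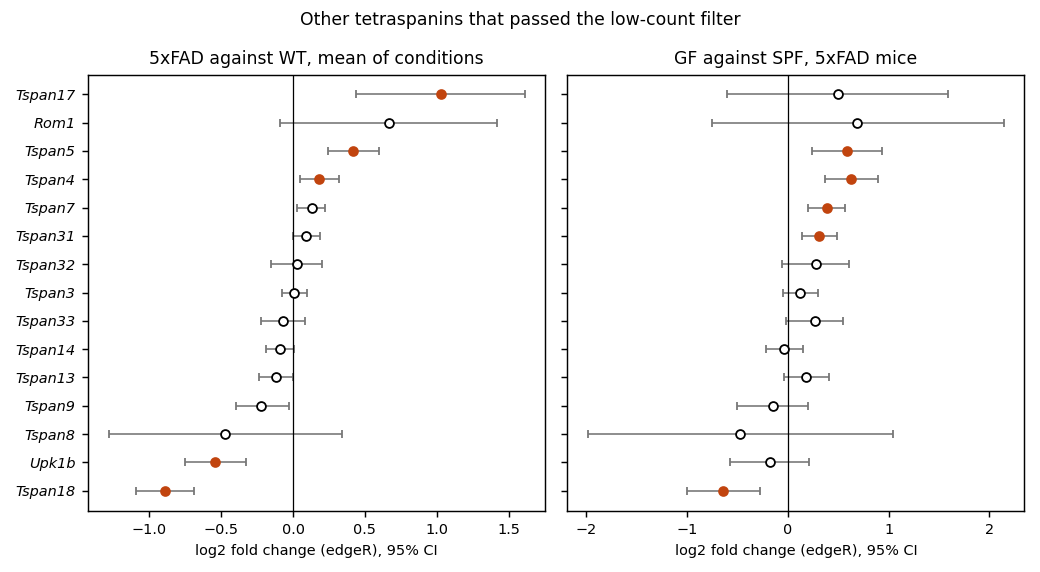
Log2 fold changes (x axis, edgeR) with 95% confidence intervals of the 15 other tetraspanins tested (y axis), for 5xFAD against WT on average over conditions and for GF against SPF in 5xFAD mice, with filled points where the adjusted p was below 0.05. *Tspan17*, *Tspan5* and *Tspan4* passed above 0 for genotype, and *Tspan18* passed below 0 in both comparisons.

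Binding partners of tetraspanins were read from a list of 18 genes, 15 of them tested. On average 7 were higher in 5xFAD mice (14.3% of all genes) and 1 was lower (10.8%), with a median of 0.33. The 3 largest rises were the class II gene *H2-Aa* (4.08), the pattern receptor *Clec7a* (3.75, adjusted p = 3.99e-20) and the scavenger receptor *Cd36* (3.56), and the fall was *Hbegf* (-0.57), a growth factor whose precursor binds CD9. Within GF mice *H2-Aa* (0.91, adjusted p = 0.403) and *Cd36* (1.87, adjusted p = 0.142) did not pass, and the genotype difference of *H2-Aa* was smaller in GF than in ABX mice (interaction -5.34, adjusted p = 0.00691). Of the 15 partners, 2 rose in GF against SPF 5xFAD mice (6.97% of all genes) and 2 fell (5.86%). *Igsf8*, an immunoglobulin-family partner of CD9 and CD81, rose in that comparison (0.61, adjusted p = 0.00706), as did *Sdcbp* (0.26, adjusted p = 0.0423), which encodes the CD63-binding adaptor syntenin, while *Adam10* (-0.58) and the integrin *Itga6* (-0.53) fell. Class II genes are also expressed by border-associated macrophages. Of 6 markers of those cells, 6 rose in 5xFAD mice on average (14.3% of all genes) and 0 within GF mice (9.43%). Their part in the class II values was not tested.

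Of 20 genes tested that act in endosomal sorting and exosome release, 3 rose and 3 fell in 5xFAD mice on average, close to the 14.3% and 10.8% of all genes, with a median of -0.02. The rises were *Chmp4b* (0.38), *Sdcbp* (0.33) and *Pdcd6ip* (0.26), all linked to budding into multivesicular bodies, and the falls were *Rab35* (-0.46), *Ykt6* (-0.30) and *Rab11a* (-0.19), which act in membrane traffic. Between GF and SPF 5xFAD mice 2 of 20 rose, *Chmp2a* (0.62, adjusted p = 0.00274) and *Sdcbp*, where 6.97% of all genes rose, and 2 fell (5.86% of all genes), *Stam* (-0.67) and *Ykt6* (-0.41).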

How the data were processed

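Total RNA of sorted microglia was made into cDNA with the SMARTer v4 kit and into libraries with Nextera XT, and sequenced as 50-base single reads. The authors mapped reads with STAR 2.7.2 and counted them per gene with featureCounts 1.6.2, and the deposited values are raw read counts per gene symbol, beside gene coordinates and exon length. The submitters' processing notes list CASAVA 1.8.2, FastQC 0.11.8, edgeR 3.26.7 and limma 3.40.6 as well. The methods name GRCm38 with GENCODE M21, whereas the notes list a human build. Of gene symbols found once in GENCODE M21, 90.6% had the same start in the table. The strand setting is not given in the sources used here. Some details of the sort and of the transgenes are not reported here.

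Counts of all 28 mice were fitted together with 1 mean per group in edgeR 4.0.16 (R 4.3.3): genes were kept by filterByExpr (minimum count 10, minimum total 15), libraries were scaled by TMM, and contrasts were tested by the quasi-likelihood F test with Benjamini-Hochberg adjustment over 15298 genes at 0.05. Tests are two-sided, and n is given as mice. The 92 spike-in rows, at most 6.4e-05% of a library, were left out. Correlations used log2 CPM with a prior count of 2. The fits were checked on simulated counts, with 200 genes changed by 1 on the log2 scale in GF 5xFAD mice. Against SPF 5xFAD mice edgeR recovered 76.5% of them, and 3.16% of its calls were false. DESeq2 recovered 79.5% with 10.7% false, and voomWithQualityWeights 73.5% with 3.92% false. No pair of mice in a group agreed within sampling noise (lowest chi-square per degree of freedom 6.92).

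The members and gene lists were chosen with earlier results of these data known. Every member is named, and of each list up to 3 rises and 3 falls among genes past the threshold, by size, for the average genotype and the GF against SPF 5xFAD comparisons, together with the 3 genes most like each member, of which the first is always given. Values named outside that rule were chosen after they were seen. Alternatives were RLE factors, library size alone, no low-count filter, a minimum of 10 counts in each library, DESeq2 1.42.0, voomWithQualityWeights (limma 3.58.1, the approach named in the methods), gene length offsets, only the groups compared, 26 mice without FAD_ABX_1151 and FAD_ABX_1482, a threshold of 0.01, a description style term and leaving out each mouse. GC content offsets (GC content known for 96.7% of tested genes) and *Cd63* summed with *Cd63-ps* were chosen after seeing the data.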

Additional observations from a re-analysis of the deposited data

Results flagged for a closer look

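In 4 of the 35 combinations of member and group of 4 or more mice, 1 mouse lay far from the others of its group by Dixon's criterion, which chance alone meets in about 1 in 20 groups. *Cd9* was 2270.2 CPM in FAD_GF_201, against 2938 to 3117 CPM in the other GF 5xFAD mice. *Cd81* was 2999 CPM in WT_GF_199, against 3625 to 3644 CPM in the other GF WT mice. In FAD_ABX_1151, *Cd81* was 2807 CPM, against 3466 to 3859 CPM in the other ABX 5xFAD mice, and *Cd151* was 12.1 CPM, against 35.9 to 49.7 CPM. FAD_GF_201 is the mouse whose description names the other genotype, and FAD_ABX_1151 is the ABX 5xFAD mouse that shares its description style and its neutrophil marker reads (117 CPM) with the SPF 5xFAD mice.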

How the results depend on the processing

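*Cd9* and *Cd63* stayed called for genotype in SPF, GF and ABX mice and on average under every alternative that was run. Counts of members called stayed within 1.5 times in 159 pairs of comparison and setting and moved in 10. Genotype in GF mice went from 2 to 4 with 26 mice, while calls over all genes went from 2391 to 2730. GF against SPF in WT mice went from 0 to 1 with voomWithQualityWeights (248 to 1631 over all genes). GF against ABX in WT mice went from 1 to 0 with library size alone (1053 to 986 over all genes) and with GC content offsets (246). It also went to 0 with no low-count filter, at least 10 counts and a threshold of 0.01. With voomWithQualityWeights (2025 over all genes) and gene length offsets (1218) it went to 2. The remaining pair was GF against SPF in 5xFAD mice with the description style term, where 1 mouse alone separates style from housing. Leaving out each mouse gave 2 to 3 calls for genotype in SPF mice, 2 to 3 in GF, 3 in ABX and 4 on average, 1 to 3 for GF against SPF (1 without FAD_SPF_1146 or FAD_SPF_1148) and 2 to 3 for GF against ABX in 5xFAD mice, 0 to 1 for GF against ABX in WT mice, 0 to 1 for the GF against ABX interaction and 3 to 5 of 7 for the F test over the 6 groups, where 4 were called beside 33.2% of all genes. Calls over all genes are not given here for the fits that left out a mouse. *Cd82* gained a call in SPF mice with 5 other settings and in GF mice with 6 (lowest adjusted p = 0.00523, library size alone). *Cd37* passed the F test with GC content offsets (adjusted p = 0.00071) and library size alone (0.0109), and *Cd53* with GC content offsets (0.00519) and voomWithQualityWeights (0.0232), and *Cd151* with voomWithQualityWeights (0.0102) and without WT_ABX_911 (0.0314).

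Of the differences whose sign turned, *Cd81* between GF and SPF 5xFAD mice (0.37, style term -0.0021) was called and the others were not. The cause was not tested. For genotype, *Cd81* in SPF mice (0.02) became -0.02 with library size alone and with voomWithQualityWeights, *Cd53* in GF mice (0.04) -0.08 with library size alone and -0.05 with length offsets, *Cd82* in ABX mice (-0.01) 0.0046 without the filter, 0.02 with voomWithQualityWeights and 0.05 with 26 mice, and *Cd53* with GC content offsets 0.12 in ABX mice (-0.19) and 0.07 on average (-0.08). For GF against SPF 5xFAD mice, *Cd82* (0.07) became -0.02 with library size alone, -0.05 with GC content and -0.18 with the style term, *Cd37* (0.04) -0.06, -0.14 and -0.09, *Cd53* (0.09) -0.0045 with library size alone, -0.06 with length offsets and -0.11 with the style term, and *Cd151* (0.68) -1.14 with the style term. For ABX against SPF 5xFAD mice, *Cd9* (-0.08) became 0.02 with voomWithQualityWeights, *Cd63* (0.03) -0.02 with length offsets and -0.04 with 26 mice, and the style term gave *Cd63* -0.34, *Cd81* -0.13, *Cd82* -0.02, *Cd53* -0.11 and *Cd151* -1.42. For GF against ABX 5xFAD mice, *Cd37* (0.07) became -0.02 with library size alone and -0.05 with GC content, and *Cd53* (0.03) -0.06, -0.01, -0.07, -0.01 and -0.02 with library size alone, no filter, length offsets, only the groups compared and 26 mice. In WT mice, *Cd82* between GF and SPF (-0.01) became 0.0009 with RLE, 0.0007 with DESeq2, 0.04 with voomWithQualityWeights and 0.01 with only the groups compared, *Cd53* (-0.04) 0.26 with GC content, and *Cd9* between ABX and SPF (-0.0015) 0.01 with RLE, DESeq2, voomWithQualityWeights and only the groups compared, 0.02 with library size alone and 0.0045 with at least 10 counts. With GC content offsets *Cd37* between ABX and SPF WT mice was 0.04, and between GF and ABX WT mice *Cd82* was -0.04, *Cd37* -0.22 and *Cd53* 0.18. There *Cd37* (0.02) was also -0.02 with library size alone and -0.01 with at least 10 counts and with length offsets. Of the interactions, *Cd82* in GF against SPF mice became -0.0003 with library size alone and -0.02 with voomWithQualityWeights, and with the latter *Cd151* was -0.09 and *Cd9* in ABX against SPF mice 0.0021, while GC content gave *Cd37* -0.13 and *Cd53* 0.18. Leaving out single mice turned signs of uncalled differences too. The ranges over the 28 fits were, for genotype, -0.03 to 0.07 (*Cd81*, SPF), -0.07 to 0.39 (*Cd151*, SPF), -0.08 to 0.02 (*Cd37*, GF) and -0.05 to 0.03 (*Cd82*, ABX). In 5xFAD mice they were -0.0012 to 0.11 (*Cd82*, GF against SPF), -0.18 to 0.07, -0.10 to 0.16 and -0.0037 to 0.15 (*Cd9*, *Cd63* and *Cd53*, ABX against SPF) and -0.02 to 0.09 (*Cd53*, GF against ABX), in WT mice -0.06 to 0.09 and -0.08 to 0.03 (*Cd82* and *Cd53*, GF against SPF), -0.03 to 0.04 (*Cd9*, ABX against SPF) and -0.04 to 0.06 (*Cd37*, GF against ABX), and for interactions -0.01 to 0.14 and -0.13 to 0.40 (*Cd82* and *Cd151*, GF against SPF) and -0.17 to 0.07 and -0.02 to 0.07 (*Cd9* and *Cd37*, ABX against SPF).

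No paired analysis was possible because the groups share no replicate numbers, each number being that of a mouse. The comparisons with SPF 5xFAD mice rest on 3 mice.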
